A study of Mus musculus with 2 samples.

Results

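Transcripts of the interleukin 1 axis and its inflammasome were described on 1 Affymetrix array of mouse marrow cells cultured with ID8 tumour cells. The genes were a fixed list of 10, chosen with earlier results of these data known. They were the ligands Il1a, Il1b and Il18, the inhibitors Il1rn and Il1r2, the receptor subunits Il1r1 and Il1rap, and the inflammasome genes Nlrp3, Pycard and Casp1. A probe set, the group of short probes that reads 1 transcript region, was taken when its only gene symbol in the platform annotation was 1 of these. This gave 19 probe sets for all 10 genes, out of 34945 probe sets that carried 1 symbol and 18193 genes so named.

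Femur marrow of C57BL/6 mice was kept in RPMI-1640 with 5% FBS. The exposed sample, ID8-induced MDSC (myeloid-derived suppressor cells, immature myeloid cells that restrain T cells), is described as 2000000 marrow cells below 50000 tumour cells in a 24-well transwell plate for 4 days; its title and source name speak instead of supernatant, and the labels spell the line ID8 and 1D8. ID8 cells derive from mouse ovarian surface epithelium. The other sample was labelled as bone marrow cells, BMCs control, of the same strain and bone, with no tumour cells in its characteristics; its protocol text repeats that of the exposed sample and gives it no culture time of its own. Both samples carried the phenotype CD11b+Gr1+. The labels do not say how that phenotype was selected, how many animals were used or whether marrow was pooled.

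Each group held 1 array, so no value has a replicate error and no test could be run. The control signals fell in order down the list of probe sets, in 2 interleaved runs with 0 rises from row to row in either, whereas the ID8-induced column rose at 49.9% of its 45036 steps. The control values are therefore not tied to genes, and no fold change is given. The values describe the ID8-induced sample alone and do not show that tumour cells raised or lowered any gene.

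Interleukin 1 alpha and interleukin 1 beta are inflammatory cytokines that act through a common receptor, which pairs with an accessory protein and passes the signal to NF-kB. Interleukin 1 beta and interleukin 18 are made as inactive precursors and are cut by caspase 1, which is itself activated on an inflammasome, an assembly of a sensor such as NLRP3 and the adaptor ASC. The system carries its own brakes, a receptor antagonist and a decoy receptor, and neutrophils and monocytes are known sources of the cytokines and of both brakes.

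Sequence upstream of the start sites is shown for Il1b, Il1rn and Il1r2, whose probe sets all reached the 99th percentile of signal, and for Il1a, the neighbour of Il1b. Each is the 250 bases before a RefSeq start on build GRCm38.p6, 5′ to 3′ on the gene's strand, and the array did not measure them. Capitals mark motif matches on either strand, and overlapping matches were each counted. For AP-1 the letters searched were TGANTCA. For the TATA box they were TATAAA. For PU.1 they were GAGGAAG, and the E-box was searched as CACGTG. For C/EBP they were TTGCNNAA. The NF-kB consensus was searched as well.
Il1b, chr2:129371140-129371389, minus strand: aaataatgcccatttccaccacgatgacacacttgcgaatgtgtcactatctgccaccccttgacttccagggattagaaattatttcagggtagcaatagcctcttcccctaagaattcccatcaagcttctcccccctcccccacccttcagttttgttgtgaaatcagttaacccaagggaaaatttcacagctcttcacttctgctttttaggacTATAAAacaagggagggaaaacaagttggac
Il1a, chr2:129309973-129310222, minus strand: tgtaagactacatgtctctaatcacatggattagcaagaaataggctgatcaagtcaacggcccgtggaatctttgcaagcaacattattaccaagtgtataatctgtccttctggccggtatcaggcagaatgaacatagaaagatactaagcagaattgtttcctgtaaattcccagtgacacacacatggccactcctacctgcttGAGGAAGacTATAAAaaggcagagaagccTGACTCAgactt
Il1rn, chr2:24336610-24336859, plus strand: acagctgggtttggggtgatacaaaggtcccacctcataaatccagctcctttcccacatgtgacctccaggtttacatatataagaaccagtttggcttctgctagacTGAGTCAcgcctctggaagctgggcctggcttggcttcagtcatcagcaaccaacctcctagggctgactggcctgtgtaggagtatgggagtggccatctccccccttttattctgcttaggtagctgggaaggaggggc
Il1r2, chr1:40085843-40086092, plus strand: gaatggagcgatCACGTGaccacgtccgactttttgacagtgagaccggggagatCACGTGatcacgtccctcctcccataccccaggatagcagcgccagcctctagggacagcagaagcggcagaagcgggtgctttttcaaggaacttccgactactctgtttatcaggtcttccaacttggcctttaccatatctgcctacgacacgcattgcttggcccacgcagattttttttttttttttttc

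The neighbours Il1b and Il1a both held a TATA box match, beginning 31 and 32 bases before the start. At any position and on either strand, a TATA match was present in 12.4% of all 32851 upstream windows. The shares of windows for the other motifs were counted likewise. The Il1a window also held an AP-1 match 12 bases and a PU.1 match 41 bases before the start, motifs present in 6.7% and 10.6% of windows. The Il1rn window shown, the most upstream of 3 listed starts, held an AP-1 match at 141 bases, and the windows of the other 2 starts held no match to any of the 6 motifs. The Il1r2 window held 2 E-box matches, at 238 and 195 bases, where 6.0% of windows held any. The NF-kB consensus, present in 7.3% of windows, was in none of these 4. Over the 14 windows of the 10 genes, TATA and PU.1 matches stood in 3 each, and NF-kB (Il1r1 and Nlrp3), AP-1, C/EBP (9.6% of all windows) and E-box matches in 2 each. The remaining TATA match, in the Il18 window, lay on the opposite strand and 175 bases before the start. These matches describe letters in a window and are not binding sites. The motifs were chosen after the upstream windows had been read, so the shares of all windows are not an independent comparison.

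All 10 genes had a probe set above the signal floor of 68.77. It was set at the 40th percentile in place of detection calls; 71.3% of all genes passed it by their brightest probe set. By their dimmest, 7 of 10 members passed, against 49.7% of all genes. By single probe sets, 15 of 19 passed, against 63.5% of all probe sets with 1 symbol. At or above the 90th percentile, a signal of 620, were 9 of the 19 (11.3% of all), and at or above the 99th, a signal of 4651, were 5 of the 19 (0.947% of all). By gene, 7 of 10 reached the 90th percentile and 3 the 99th, where 14.8% and 1.39% of all genes did. The median percentile of the 19 probe sets was 85.5, beside 53.9 for all probe sets with 1 symbol. The percentile of a signal tells what percentage of the array's 45037 probe sets read lower. It does not rank transcripts by abundance, because probes differ in how strongly they hybridise. In a bulk sample, fewer cells of a type and less RNA per cell cannot be told apart.

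**Figure D1:**
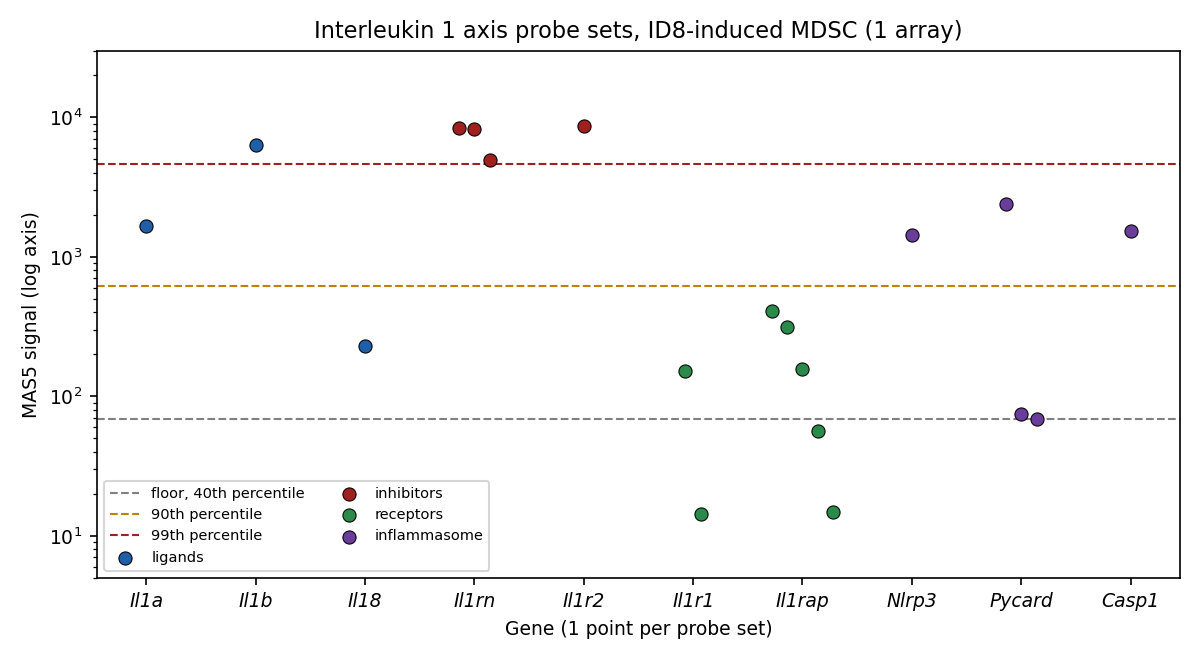
MAS5 signal on a log axis for each of the 19 member probe sets in the 1 ID8-induced MDSC array, coloured by role, with dashed lines at the 40th (floor), 90th and 99th percentile of the array. The single Il1b and Il1r2 probe sets and all 3 of Il1rn lie above the uppermost line, while the probe sets of Il1r1, Il1rap and Pycard spread over more than 10-fold.

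Among the ligands, Il1b gave a signal of 6332 on its single probe set (1449399_a_at), at the 99.4th percentile. Only 253 of the 45037 probe sets read brighter. Il1a, whose product is active without being cut, read 1664 on its single probe set (1421473_at), at the 96.2nd percentile. Il18, the other ligand that caspase 1 releases, read 230 (1417932_at), at the 76.5th percentile and 3.34 times the floor. Of the 3 ligands, Il18 was thus the member that lay above the floor but short of the 90th percentile.

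The inhibitors gave signals at the top of the array. Il1rn, which encodes the receptor antagonist that occupies the receptor without signalling, read 8377 (1451798_at), 8286 (1423017_a_at) and 4914 (1425663_at). All 3 lay between the 99.1st and 99.7th percentiles, and the brightest exceeded the dimmest 1.70-fold, a smaller ratio than in 76.3% of the 9010 genes with several probe sets. Il1r2, the decoy receptor that binds interleukin 1 but has no signalling domain, read 8703 on its single probe set (1419532_at), at the 99.7th percentile. This was the 124th brightest of all probe sets.

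None of the 7 probe sets of the signalling receptor reached the 90th percentile. Il1r1, the receptor chain that carries the signal, read 152.81 on 1 probe set (1448950_at), at the 67.1st percentile, and 14.29 on the other (1459777_at), at the 3.6th percentile. Only the former lay above the floor, at 2.22 times it. Il1rap, the accessory chain shared by several receptors of the family, was read by 5 probe sets. They gave 406 (1449585_at), 316 (1421844_at), 156 (1421843_at), 56.0 (1442614_at) and 14.73 (1439697_at). The upper 3 lay above the floor, at the 85.5th, 82.1st and 67.5th percentiles, and the other 2 below it.

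The inflammasome genes lay above the 90th percentile by their brightest probe sets. Nlrp3, the sensor, read 1439 on its single probe set (1425412_at), at the 95.6th percentile. Casp1, the protease, read 1542 on its single probe set (1449265_at), at the 95.9th percentile. Pycard, which encodes the adaptor ASC, read 2397 (1417346_at), 74.56 (1417347_at) and 68.75 (1446926_at). The brightest Pycard probe set lay at the 97.5th percentile, and the other 2 lay 8.41% above the floor and 0.035% below it.

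The probe sets of a gene disagreed for 3 of the 4 members that had several. The brightest exceeded the dimmest 34.9-fold for Pycard, 27.6-fold for Il1rap and 10.7-fold for Il1r1, ratios above those of 96.8%, 95.9% and 86.2% of the genes with several probe sets, whose median was 3.01. These ranks were not matched for the number of probe sets, and the ratio can only grow as probe sets are added. Pycard has 3 probe sets, Il1rap 5 and Il1r1 2. The 2 upper Pycard probe sets are annotated with the same source accession, yet differed 32.1-fold. Among 5219 pairs of probe sets of 1 gene with 1 accession the median ratio was 1.88, and 0.94% of pairs had a larger ratio than this one. The matching pairs of Il1rap and Il1rn differed 2.03-fold and 1.70-fold, near that median. The annotation used here does not place the probes along the transcripts. For Pycard, Il1rap and Il1r1 the signal of the gene therefore depends on the probe set read, whereas 6 members have a single probe set and no such check.

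**Figure D2:**
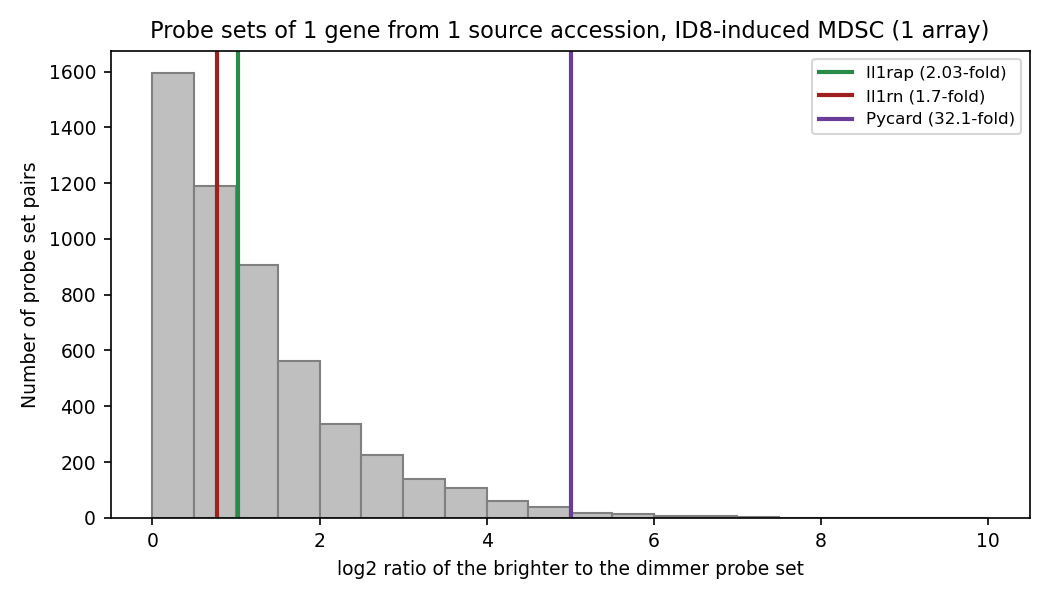
Histogram of the log2 ratio of the brighter to the dimmer probe set for 5219 pairs that share gene and source accession, in the ID8-induced MDSC array, with vertical lines at the 3 member pairs. The Il1rn and Il1rap pairs fall in the bulk of the distribution and the Pycard pair, at 32.1-fold, falls in its tail.

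Several members lie beside relatives in the genome, and these runs of relatives held signals from below the floor to the 99.7th percentile. In the gene order of the RefSeq table, Il1r2 and Il1r1 are adjacent and are followed by Il1rl2, Il1rl1, Il18r1 and Il18rap. Il1r2 read 8703 and Il1r1 at most 152.81. Il1rl2, the receptor of the interleukin 36 cytokines, read 59.38 and 39.93, both below the floor. The interleukin 18 receptor chains Il18r1 and Il18rap read 371 on 1 probe set and 1756 and 1510 on 2. Il1rl1 is not analysed here, since no probe set had it as the only symbol. Il1rn follows 5 genes of the family: Il1f8 (interleukin 36 beta) read 143.5, Il1f9 (interleukin 36 gamma) 4402, Il1f6 (interleukin 36 alpha) 124.76, Il1f5 (the interleukin 36 receptor antagonist) 75.46 and 41.89, and Il1f10 103.56. Of these, Il1f9 was the gene above the 90th percentile, at the 98.9th. Casp1 is followed by Casp4, which encodes the caspase that senses intracellular lipopolysaccharide in mice, at 2895, and by Casp12 at 83.96 and 72.01. Genes outside the family at the ends of these runs also varied. Map4k4 before Il1r2 read 1000 on its brightest and 107 on its dimmest probe set, and Slc9a4 after Il18rap read 36.33. Psd4 after Il1rn read 1093 and 504, and Gria4 before Casp1 111.15 and 3.45.

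**Figure D3:**
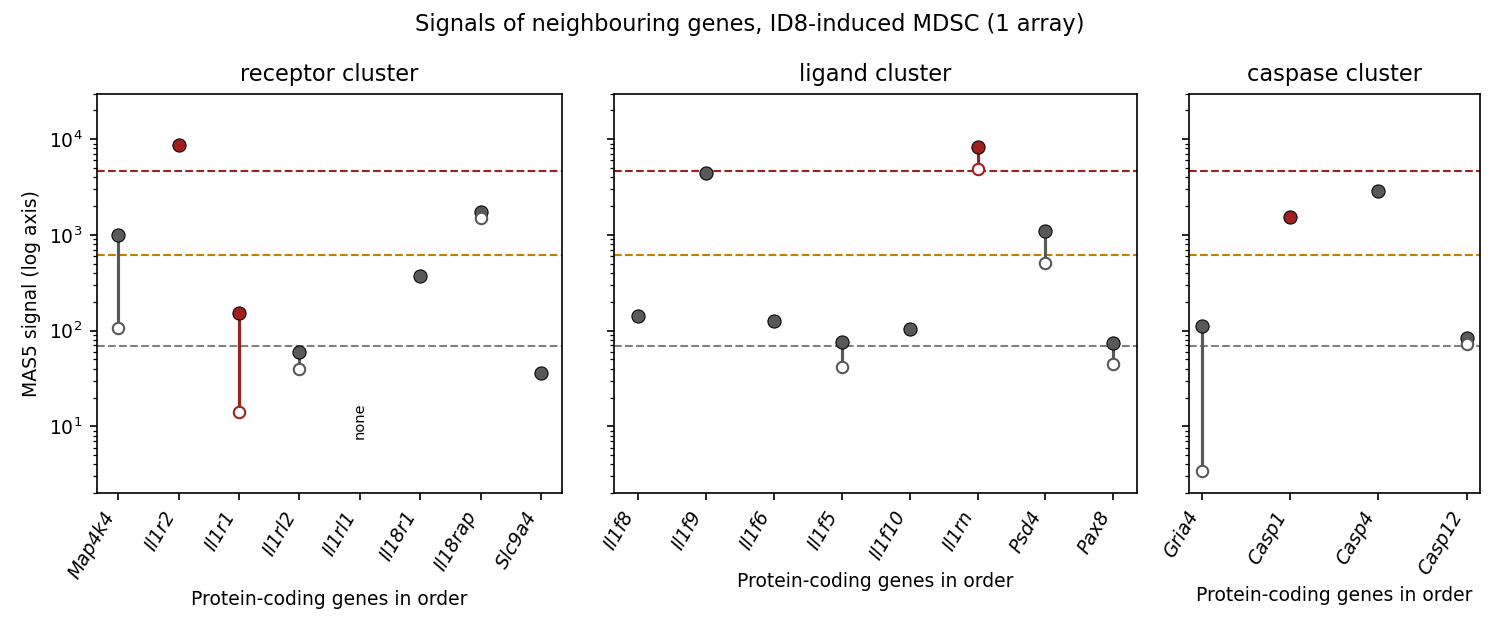
MAS5 signal on a log axis for protein-coding genes in genome order around Il1r1, Il1rn and Casp1 in the ID8-induced MDSC array. Filled points are the brightest and open points the dimmest probe set of a gene, members are red, dashed lines mark the 40th, 90th and 99th percentiles, and "none" marks a gene with no probe set of its own. Il1r2 and Il1rn stand above the 99th percentile line; of the other family genes drawn, Il1f9, Il18rap and Casp4 lie above the 90th together with Casp1.

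The rest of the pathway was taken from 7 lists with 77 genes, of which 68 had a probe set of their own. By their brightest probe sets, 64 of 68 passed the floor, 33 reached the 90th percentile and 10 the 99th, where 71.3%, 14.8% and 1.39% of all genes did. The counts of each list below are to be read against the same shares. The lists were chosen with earlier results of these data known, so a count above these shares is not independent of that choice. The median percentile of the 68 genes was 88.2, beside 61.4 for all genes. Except where a gene is at or above the 99th percentile or below the floor, the genes named from these lists were chosen for their role after their values were seen.

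Of 7 other ligands and binding proteins of the family, all passed the floor and 2 reached the 90th percentile. These were Il1f9, given above, and Il18bp, which encodes the protein that neutralises interleukin 18, at 706. Il33 read 108.31, at the 56.8th percentile. Of 6 other receptors, 3 passed the floor, Il18rap, Il18r1 and Sigirr (an inhibitory receptor, at 439). Il1rl2, Il1rapl1 and Il1rapl2 lay below it, the last 2 at 27.72 and 20.59 on their brightest probe sets.

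All 14 measured genes of receptor signalling passed the floor and 7 reached the 90th percentile. Irak3, which encodes IRAK-M, a brake on the kinases that follow the receptor, read 6170 and 2564 on its 2 probe sets and was the gene of this list at the 99th percentile. Irak2, a kinase of the same family that sustains the signal, read 3855, and the adaptor gene Myd88 782. Map3k7, which encodes the kinase TAK1, spread from 414 to 54.47 over 6 probe sets. The brightest of these lay at the 85.8th percentile and the dimmest below the floor.

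Of 14 other inflammasome sensors listed, 9 had a probe set of their own, and Nlrp1a, Nlrp1b, Nlrc4, Naip1 and Nod2 had none. Of the 9 measured, 8 passed the floor and Mefv, which encodes pyrin, reached the 90th percentile at 3991. Aim2, a sensor of cytosolic DNA, read 113.51, and Nlrp10 lay below the floor at 39.1. All 13 regulators and effectors passed, and 9 reached the 90th percentile. Ninj1, which encodes a protein of membrane rupture, read 8139 on its brightest probe set and 296 on its dimmest. Tnfaip3, which encodes the NF-kB inhibitor A20, read 5056 and 1493. Gsdmd, the pore-forming target of caspase 1, read 959, at the 93.4th percentile. P2rx7, the receptor through which extracellular ATP triggers NLRP3, read 111.95 on its brightest and 25.73 on its dimmest of 3 probe sets, the latter below the floor.

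All 7 proteases that can process interleukin 1 precursors or act on the inflammasome passed the floor and 3 reached the 90th percentile. Ctsb (cathepsin B) read 9966 on its brightest and 177 on its dimmest of 5 probe sets, Prtn3 (proteinase 3) 1229 and Capn1 (calpain 1) 1125. The granule proteases Ctsg (cathepsin G), Elane (neutrophil elastase) and Gzmb (granzyme B) read 413, 301 and 133, and Capn2 (calpain 2) 256, all short of the 90th percentile. Of 12 genes known to respond to interleukin 1, all passed, 10 reached the 90th percentile and 6 the 99th, with a list median at the 98.9th percentile. The brightest were Lcn2 (lipocalin 2) at 21448, Nfkbia (an NF-kB inhibitor) at 16872, Cxcl2 (a neutrophil chemokine) at 13279 and Saa3 (serum amyloid A 3) at 6710. Il6 and Ccl2 read 570 and 283, short of the 90th percentile. These genes also respond to other stimuli, and Lcn2 is a granule gene of maturing neutrophils.

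**Figure D4:**
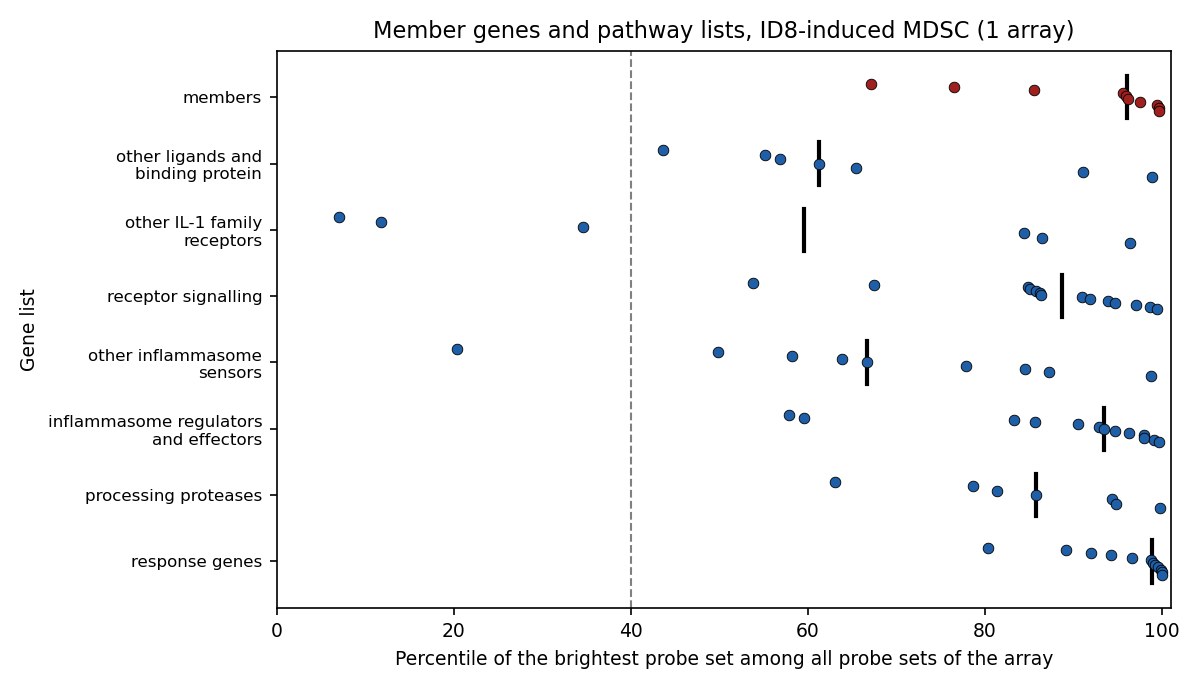
Percentile of the brightest probe set among all probe sets of the ID8-induced MDSC array, 1 point per gene, for the 10 members and the 7 pathway lists. Black bars are list medians and the dashed line is the floor at the 40th percentile; the members' median is 96.1, and the points below the floor are in the lists of other receptors and other sensors.

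The labelled cell type was compared with listed markers of cell types. All 6 measured neutrophil markers reached the 90th percentile, from Itgam (CD11b) at 2375 to S100a9 at 24857, while Ly6g, an antigen of the Gr1 antibody, had no probe set of its own. CD11b belongs to the labelled phenotype, so Itgam does not tell neutrophils from other CD11b+ cells. Of 8 monocyte and macrophage markers, 5 passed the floor, 3 reached the 90th percentile and 1 the 99th, where 14.8% and 1.39% of all genes did. Cd14 at 10143, Csf1r at 4403 and Adgre1 at 1443 were the brightest. Ccr2 spread from 286 to 9.84 over 4 probe sets, and Mrc1, C1qa and Mertk read between 35.04 and 48.62. Dendritic cell markers passed in 6 of 6 cases by their brightest probe sets, and H2-Ab1 at 1531 and Cd74 at 999 reached the 90th percentile. The others did not, and among them Flt3 read 164.79 and Zbtb46 at most 117.11, at the 69.0th and 59.2nd percentiles. Siglech, at 75.89, lay just above the floor. The dimmest probe sets of H2-Aa and Zbtb46 read 10.67 and 21.1, below the floor. Among T and NK cell, B lineage, epithelial, fibroblast and endothelial markers 19 of 29 passed and 0 reached the 90th percentile, the brightest reading 277. This floor count of 19 of 29, and the 5 of 8 for monocytes and macrophages, are near the 71.3% of all genes that passed. Such floor counts say nothing particular about those cells. Mast cell and basophil, eosinophil and erythroid markers passed in 6 of 13 cases, with Alas2 at 1693 the gene above the 90th percentile. Alas2 was the only 1 of the 4 measured erythroid markers to pass the floor. Klf1, Hba-a1 and Car1 read 55.94, 51.32 and 31.2, all below it. Neutrophils, monocytes and dendritic cells are all known to express members described here, and how much each contributed to a member's signal was not tested.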

How the data were processed

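Per the labels' protocols, TRIzol was used for RNA extraction and 6 ug of total RNA went into biotinylated cRNA for Affymetrix arrays. Signals were made with MAS5, per the submitters' processing notes, which as used here name no version, scaling target or detection calls. The deposited values are linear signal intensities, 1 for each of 45037 probe sets in each of 2 samples. The number of arrays, 1 per group, limits the precision.

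Each column was checked for order by counting rises from row to row, a check tested on simulated data. Only the ID8-induced column was then read, as deposited. GEO's platform annotation gave 34945 probe sets 1 symbol, 932 several and 9160 none, and 0 of those with several symbols held a member's. All 10 Entrez IDs were found in the GRCm38.p6 table; 4 interleukin 36 symbols of the lists were matched through older names. The signal floor is the 40th percentile. A gene was summarised by its brightest probe set, which raises genes with many. The members, lists, marker genes and motifs were chosen with earlier results of these data known, and the motifs after the upstream windows had been read.

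By the rule for named genes, every member probe set is named, with up to 4 genes at the 99th percentile or higher and up to 4 below the floor from each pathway list. Other pathway genes are named outside this rule, chosen for their role after their values were seen. Genome neighbours of members are named outside it as well. Other settings tried were floors at the 20th and the 60th percentile, averaging log2 signals within a gene, the dimmest probe set, probe sets without a suffix letter and percentiles among probe sets with 1 symbol. No test, fold change or likeness of pattern between genes could be computed from 1 array. Upstream sequences are from RefSeq. Scripts ran in Python 3.11.15 with matplotlib 3.10.9, numpy 2.4.6 and pandas 2.3.3.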

Additional observations from a re-analysis of the deposited data

How the results depend on the processing

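The number of member genes above the floor was 10 with the floor at the 20th, 40th or 60th percentile, 9 with log2 signals averaged within a gene (Il1r1 then read 46.73, below the floor), 9 with probe sets without a suffix letter (Il1b has none) and 7 when the dimmest probe set decided. Of the member probe sets, 15 passed the floor, 17 at the 20th percentile, 14 at the 60th and 13 of those without a suffix letter. Their median percentile of 85.5 became 82.1 with suffix-free probe sets and 83.6 among probe sets with 1 symbol. Averaging changed 3 of the 4 members with several probe sets by more than 1.5 times, Il1r1 to 46.73, Il1rap to 110.52 and Pycard to 230.75, while Il1rn read 6987. Of the 68 pathway genes, 64 passed, 66 at the 20th percentile, 56 at the 60th and 61 with averaging. The list of other ligands fell from 7 to 4 at the 60th percentile. No paired analysis was possible because each group held 1 array and the control values are not tied to probe sets. Passing the floor does not show that a gene was expressed, and the spread between cultures is unknown.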
